A study of Homo sapiens with 24 samples.

Results

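Tight junction genes were followed as a set of 9 symbols among the 61533 genes of the count tables, taken by name, and all 9 were found. They are the claudins CLDN1, CLDN4, CLDN7 and CLDN12, the MARVEL-domain proteins OCLN (occludin) and MARVELD2 (tricellulin), the adhesion molecule F11R (JAM-A), and the plaque proteins TJP1 (ZO-1) and CGN (cingulin). The RNA came from 4 human cancer lines, each with 3 CAP and 3 Control libraries, 24 libraries in all. CAP libraries came from cells 24 h after 60 s of Piezo-CAP, a cold atmospheric plasma (partly ionised gas at near room temperature) from a piezoelectric device, and Control libraries from wells given 0 s. The lines were Cal27 (squamous carcinoma of the tongue), A375 (melanoma), Fadu (squamous carcinoma of the hypopharynx) and Hth83 (known as an anaplastic thyroid carcinoma line), all wild type and all called head and neck cancer cells in the labels. Fadu grew in MEM and the other lines in DMEM, so medium and line cannot be told apart.

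Tight junctions close the space between neighbouring epithelial cells. Claudins form the strands that seal or let through ions, occludin runs along the strands, tricellulin sits where cells meet in threes, and JAM-A helps place the junction and set cell polarity. ZO-1 and cingulin lie on the inner face and tie the strands to actin and its regulators. CLDN1 is the main sealing claudin of the epidermis, and mice without it lose water through the skin.

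The libraries held 27882581 to 49514338 counts each. Whether the 3 libraries of a group are separate cultures is left unsaid by the labels, so the p-values reflect only library-to-library spread, which may be technical. Of 8 squamous markers, 6 were at 10 CPM (counts scaled for library size) or more in untreated Cal27, 8 in untreated Fadu and 7 in untreated Hth83, against 0 in untreated A375. Of 8 melanocyte markers 3 were in untreated A375 (SOX10, MITF and S100B), 1 in untreated Fadu and 0 in untreated Cal27 and Hth83. Of 8 thyroid markers 1 (PAX8) was in untreated Hth83, against 2 in untreated Cal27 and 0 in untreated A375 and Fadu. The share of all called genes that were higher in CAP depended on scaling. It was 48.5% in Cal27, 50.9% in A375 and 49.3% in Fadu with TMM, the scaling used throughout, against 62.4% in Cal27, 39.8% in A375 and 61.8% in Fadu with library size alone, and 83.4% in Cal27 and 40.8% in A375 on deposited TPM. Relative to TMM, the median log2 fold change of all genes stood 0.20 higher on TPM in Cal27 and 0.10 higher with library size in Fadu.

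Levels are given as RPKM, TMM-scaled CPM per kilobase of exon (GENCODE 29 on GRCh38), so that genes of different length can be set side by side. The claudin genes lie at chromosome 3, 190305701 to 190322475 (CLDN1, ENSG00000163347.6, minus strand), chromosome 7, 73799542 to 73832693 (CLDN4, plus strand), chromosome 17, 7259903 to 7263983 (CLDN7, minus strand) and chromosome 7, 90383721 to 90513402 (CLDN12, plus strand). OCLN (69492292 to 69558104) and MARVELD2 (69415065 to 69444330) are neighbours on the plus strand of chromosome 5. TJP1 is at chromosome 15, 29699367 to 29968865 (minus strand), F11R at chromosome 1, 160995211 to 161021348 (minus strand), and CGN at chromosome 1, 151510510 to 151538692 (plus strand). Exons of CLDN12 overlap those of GTPBP10 and CDK14 on the same strand, exons of CLDN7 overlap ELP5 on the opposite strand and AC003688.1 on the same strand, and exons of F11R overlap AL591806.3 on the same strand. Whether reads were counted by strand is unknown here, so the counts of these 3 members are uncertain.

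RefSeq start-site windows of 300 bases (250 before and 50 after the start, GRCh38.p14) were matched for 8 of the 9 members, in 13 windows. They were searched on both strands for the E-box CAGGTG or CACCTG that SNAI and ZEB repressors bind, the AP-1 motif TGANTCA, the GC box GGGCGG or CCGCCC, and the grainyhead motif AACCGGTT. Overlapping matches were counted separately. Windows of CLDN1, CLDN4, CLDN7 and OCLN are shown as examples. The contrasts between lines described further on also concern members whose windows are not shown, among them TJP1 and CLDN12. They are CLDN1 (chr3:190322397-190322696, minus strand), CLDN4 (chr7:73830746-73831045, plus strand), the second of 2 listed CLDN7 starts (chr17:7262429-7262728, minus strand) and the first of 2 listed OCLN starts (chr5:69492297-69492596, plus strand), with motif matches in capitals.
CLDN1: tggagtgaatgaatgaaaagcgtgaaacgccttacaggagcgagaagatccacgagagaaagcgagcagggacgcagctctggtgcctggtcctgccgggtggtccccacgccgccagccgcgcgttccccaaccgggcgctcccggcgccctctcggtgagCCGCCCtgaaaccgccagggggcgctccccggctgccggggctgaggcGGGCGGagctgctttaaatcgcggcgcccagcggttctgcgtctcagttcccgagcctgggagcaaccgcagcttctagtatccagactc
CLDN4: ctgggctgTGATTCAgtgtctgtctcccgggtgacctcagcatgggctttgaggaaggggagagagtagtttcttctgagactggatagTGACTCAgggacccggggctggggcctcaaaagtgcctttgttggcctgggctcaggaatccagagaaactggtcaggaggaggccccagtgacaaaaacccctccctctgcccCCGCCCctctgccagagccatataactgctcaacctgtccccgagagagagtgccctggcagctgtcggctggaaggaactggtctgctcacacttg
CLDN7: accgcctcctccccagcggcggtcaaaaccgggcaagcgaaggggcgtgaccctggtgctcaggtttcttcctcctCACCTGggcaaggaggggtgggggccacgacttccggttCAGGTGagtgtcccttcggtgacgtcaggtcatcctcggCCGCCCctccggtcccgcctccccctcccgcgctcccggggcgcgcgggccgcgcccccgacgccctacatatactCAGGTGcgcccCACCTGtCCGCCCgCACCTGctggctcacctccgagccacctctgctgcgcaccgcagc
OCLN: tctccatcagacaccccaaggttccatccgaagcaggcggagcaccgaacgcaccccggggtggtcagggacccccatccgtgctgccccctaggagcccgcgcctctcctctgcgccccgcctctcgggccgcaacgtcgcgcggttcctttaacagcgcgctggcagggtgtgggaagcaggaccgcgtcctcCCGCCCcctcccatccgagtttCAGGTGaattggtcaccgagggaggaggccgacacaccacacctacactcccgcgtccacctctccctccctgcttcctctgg
The CLDN1 window holds 2 GC boxes and none of the other motifs. The CLDN4 window holds 2 AP-1 motifs, found in 1 of the 13 windows, and 1 GC box. The CLDN7 window holds 5 E-boxes and 2 GC boxes, whereas the window of the first CLDN7 start holds none of the motifs. The OCLN window holds 1 E-box and 1 GC box, and the window of the second OCLN start 2 E-boxes and none of the other motifs. Of the 13 windows, 4 hold an E-box and 9 a GC box. Over all 35116 RefSeq windows of this kind, 20.6% hold an E-box, 7.71% an AP-1 motif and 45.0% a GC box. The grainyhead motif is in 0.134% of them and was in 0 of the 13. A match describes letters and is not a bound site.

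In untreated cells CLDN1 was the most abundant of the 9 genes in Cal27, Fadu and Hth83, and close to absent in A375. CLDN1 stood at 164.5, 157.5 and 154.4 RPKM in untreated Cal27 and at 0.634, 0.369 and 0.437 RPKM in untreated A375. It stood at 87.3, 88.4 and 86.6 RPKM in untreated Fadu and at 211.0, 195.1 and 222.6 RPKM in untreated Hth83. No 2 lines overlapped in CLDN1, and the order was Hth83, Cal27, Fadu, A375. Each step of that order passed edgeR's quasi-likelihood test in a joint fit of the 24 libraries. On the log2 scale Cal27 minus Hth83 was -0.40 ± 0.08, adjusted p = 1.73e-04, Cal27 minus Fadu was 0.86 ± 0.08, adjusted p = 1.01e-08, and A375 minus Fadu was -7.44 ± 0.13, adjusted p = 1.38e-20 (± SE throughout for log2 values). Most genes differed between untreated lines, 68.7% of 23642 for Cal27 against Hth83, 69.6% for Cal27 against Fadu, 75.6% for A375 against Fadu, 76.8% for Cal27 against A375, 71.7% for A375 against Hth83 and 69.4% for Fadu against Hth83.

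**Figure D1:**
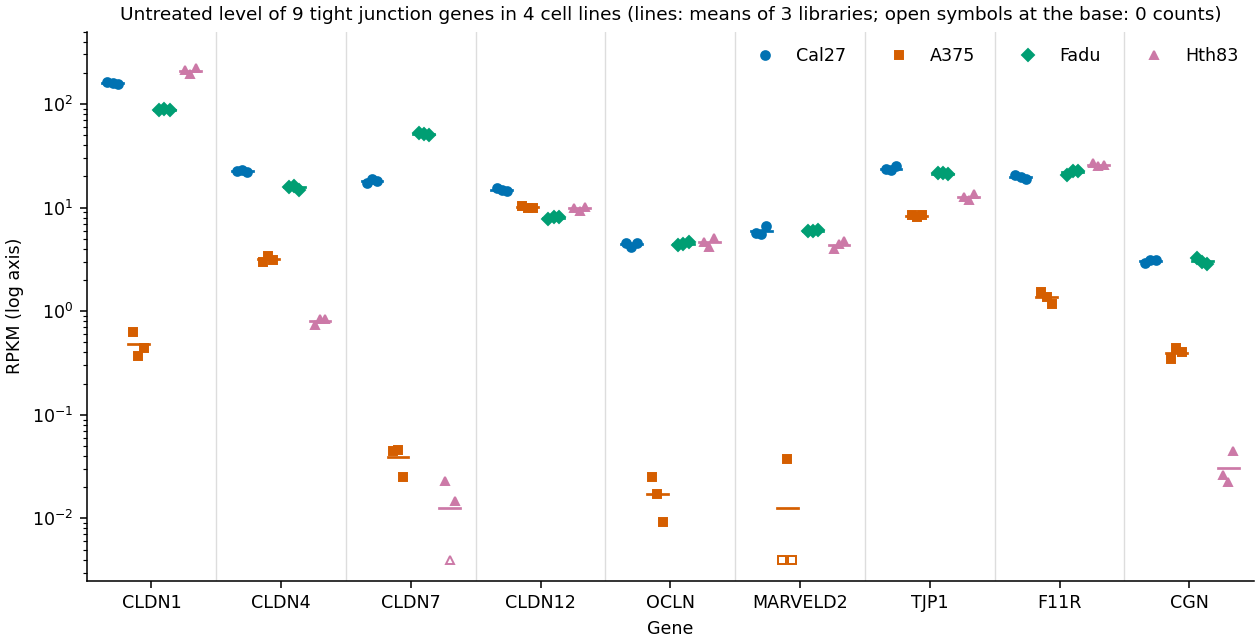
Level of the 9 genes (RPKM, log axis) in each untreated library of the 4 lines, with open symbols at the base for libraries with 0 counts. CLDN1 lies at 154.4 to 164.5 RPKM in Cal27, 86.6 to 88.4 in Fadu and 195.1 to 222.6 in Hth83 but at 0.369 to 0.634 in A375, whereas CLDN12 lies between 7.77 and 15.5 RPKM in all 12 untreated libraries.

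The other claudins divided the lines in other ways. CLDN7, a claudin that binds EPCAM in epithelial cells, averaged 18.03 ± 0.764 RPKM in untreated Cal27 and 51.4 ± 1.16 RPKM in untreated Fadu (SD, n = 3 each). It had 6, 4 and 2 counts in the untreated A375 libraries and 2, 0 and 1 counts in the untreated Hth83 libraries, so the line with the most CLDN1 had next to no CLDN7. CLDN4, a claudin that limits sodium passage in kidney cells, averaged 22.5 ± 0.375 RPKM in untreated Cal27, 3.16 ± 0.2003 in A375, 15.7 ± 0.703 in Fadu and 0.809 ± 0.0618 in Hth83 (SD, n = 3 each). Hth83 was thus lowest for CLDN4 also. CLDN12, a claudin without the C-terminal motif by which most claudins bind ZO proteins, was the most even claudin. It averaged 14.9 ± 0.492 RPKM in untreated Cal27, 10.1 ± 0.266 in A375, 7.99 ± 0.1896 in Fadu and 9.82 ± 0.449 in Hth83 (SD, n = 3 each), and it was the highest of the 9 genes in A375. A375 and Hth83 did not differ in CLDN12 beyond their spread (A375 minus Hth83 0.04 ± 0.05, adjusted p = 0.507 by edgeR), although they did with library size alone (adjusted p = 6.17e-06) and on deposited TPM (adjusted p = 2.70e-04).

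Apart from TJP1, the remaining genes were low in A375. OCLN averaged 4.42 ± 0.245 RPKM in untreated Cal27, 4.48 ± 0.1301 in Fadu and 4.64 ± 0.468 in Hth83 (SD, n = 3 each), and had 9, 4 and 2 counts in the untreated A375 libraries. The 3 lines with OCLN did not differ in it beyond their spread (edgeR adjusted p = 0.869, 0.466 and 0.600 for the pairs), but Fadu exceeded Cal27 with library size alone (adjusted p = 0.0319) and both Fadu and Hth83 exceeded Cal27 on TPM. MARVELD2 averaged 5.96 ± 0.572 RPKM in untreated Cal27, 5.95 ± 0.133 in Fadu and 4.39 ± 0.399 in Hth83 (SD, n = 3 each), with 0, 7 and 0 counts in the untreated A375 libraries, where a count of 0 allows up to 0.0105 and 0.0176 RPKM (3 counts, counting error only). F11R averaged 19.8 ± 0.675 RPKM in untreated Cal27, 1.36 ± 0.184 in A375, 21.9 ± 1.01 in Fadu and 26.00 ± 0.865 in Hth83 (SD, n = 3 each). TJP1, a scaffold that non-epithelial cells also use, averaged 23.8 ± 1.18 RPKM in untreated Cal27, 8.36 ± 0.258 in A375, 21.3 ± 0.326 in Fadu and 12.7 ± 0.966 in Hth83 (SD, n = 3 each). CGN averaged 3.06 ± 0.109 RPKM in untreated Cal27, 0.398 ± 0.0477 in A375 and 3.05 ± 0.225 in Fadu (SD, n = 3 each), with 6, 5 and 8 counts in untreated Hth83, again the lowest line. Between untreated Cal27 and Fadu, MARVELD2, TJP1, F11R and CGN lay within 0.16 on the log2 scale of each other, and the sign of MARVELD2, TJP1 and CGN turned on TPM.

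CLDN1 fell in CAP cells of the 3 lines in which it is abundant. In Cal27 CLDN1 stood at 103.5, 107.7 and 103.4 RPKM in CAP libraries, against 164.5, 157.5 and 154.4 RPKM in Control libraries. In Fadu it stood at 28.7, 28.03 and 26.1 RPKM in CAP libraries, against 87.3, 88.4 and 86.6 RPKM in Control libraries. In Hth83 it stood at 119.4, 111.1 and 147.5 RPKM in CAP libraries, against 211.0, 195.1 and 222.6 RPKM in Control libraries. In each of these 3 lines every CAP library lay below every Control library. CLDN1 fell by 33.7% in Cal27 (log2 fold change -0.59 ± 0.03, adjusted p = 2.66e-15), by 68.7% in Fadu (-1.67 ± 0.04, adjusted p = 4.84e-60) and by 39.5% in Hth83 (-0.73 ± 0.11, adjusted p = 0.00204), in edgeR's quasi-likelihood test within each line. Such calls were common in all genes: 45.1% of genes tested changed in Cal27 (23.2% lower), 53.3% in Fadu (27.0% lower) and 50.1% in Hth83 (24.2% lower). CAP and Control libraries did not overlap in 52.7% of the genes tested in Cal27, 57.9% in A375, 58.6% in Fadu and 57.2% in Hth83. In bulk samples fewer cells of a type and less RNA per cell cannot be told apart.

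A375 held little CLDN1 in either group, 50, 50 and 59 counts in CAP libraries and 124, 47 and 51 counts in Control libraries. The groups overlapped, and the log2 fold change of -0.35 ± 0.25 did not pass (adjusted p = 0.247 by edgeR). Without the first Control library, which held the most counts, it was -0.08 (adjusted p = 0.852).

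**Figure D2:**
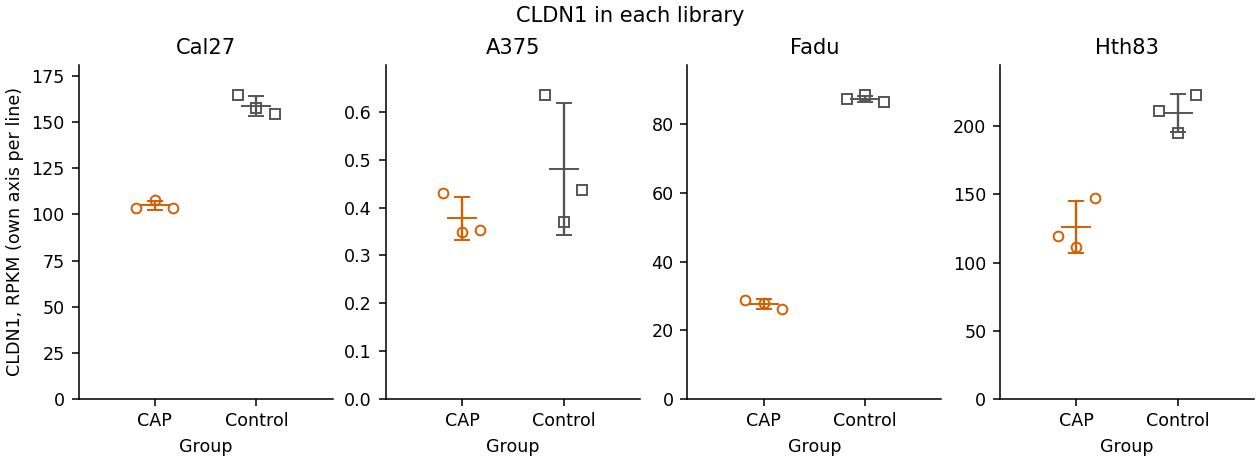
CLDN1 level (RPKM) in every library, CAP left of Control, with the mean ± SD of 3 libraries and a separate linear axis for each line. CAP libraries lie below all Control libraries in Cal27 (103.4 to 107.7 against 154.4 to 164.5), Fadu (26.1 to 28.7 against 86.6 to 88.4) and Hth83 (111.1 to 147.5 against 195.1 to 222.6), and overlap them in A375 (0.349 to 0.430 against 0.369 to 0.634).

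The size of the CLDN1 response differed between lines (interaction over 4 lines, edgeR adjusted p = 4.67e-07; 56.9% of genes tested had such an interaction). Fadu stood apart: the log2 fold change of Cal27 minus that of Fadu was 1.06 ± 0.12, adjusted p = 2.46e-07, that of A375 minus Fadu was 1.23 ± 0.30, adjusted p = 0.00255, and that of Fadu minus Hth83 was -0.93 ± 0.11, adjusted p = 1.69e-06. Cal27 and Hth83 did not differ beyond their spread (0.14 ± 0.11, adjusted p = 0.418), but did so without the third CAP library of Hth83 (adjusted p = 0.0024). The pairs of A375 with Cal27 (-0.17 ± 0.29, adjusted p = 0.745) and with Hth83 (0.30 ± 0.29, adjusted p = 0.522) did not pass either, with 47 to 124 counts of CLDN1 per A375 library. Over all genes these tests called 38.4% for Cal27 minus Fadu, 36.0% for A375 minus Fadu, 35.7% for Fadu minus Hth83, 35.0% for Cal27 minus Hth83, 35.5% for Cal27 minus A375 and 27.3% for A375 minus Hth83.

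Most squamous marker genes fell in the 3 lines in which CLDN1 fell. Their summed level ranged over 749.5 to 757.8 CPM in CAP and 1265.5 to 1284.2 CPM in Control libraries of Cal27, where 7 of 8 fell and 0 rose (23.2% of all genes fell and 21.9% rose). It ranged over 2619.3 to 2884.6 CPM in CAP and 5549.2 to 5760.4 CPM in Control libraries of Fadu, where 6 of 8 fell and 2 rose, S100A2 and KRT6A (27.0% of all genes fell and 26.3% rose), and over 2327.1 to 2481.7 CPM in CAP and 2628.5 to 2767.9 CPM in Control libraries of Hth83, where 6 of 8 also fell and 2 rose, KRT5 and S100A2, the second not in 11 of 19 alternatives (24.2% of all genes fell and 25.9% rose). In A375 the sum was 16.4 to 18.6 CPM in CAP and 6.70 to 7.55 CPM in Control libraries, and 2 of 2 markers tested, KRT14 and S100A2, rose (25.7% of all genes rose). Their part in the CLDN1 result was not tested.

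Of the 9 genes, 5 rose, 3 fell and 1 did not pass in CAP against Control Cal27, where 21.9% of all genes rose and 23.2% fell. In A375 2 rose, 1 fell, 3 did not pass and 3 were too low to test (50.5% of all genes changed, 25.7% higher and 24.8% lower). In Fadu 3 rose, 4 fell and 2 did not pass (26.3% of all genes rose and 27.0% fell). In Hth83 5 fell, 2 did not pass and 1 was too low to test (25.9% of all genes rose and 24.2% fell). The other gene, CGN, was past the threshold and higher in CAP Hth83, but entered the test only through its CAP libraries, and with the filter of 1 CPM 0 members were higher. The median log2 fold change of the tested members was 0.10 in Cal27, 0.09 in A375, 0.03 in Fadu and -0.33 in Hth83 (CGN included), beside medians over all genes of 0.00, -0.02, 0.01 and 0.00. F11R alone of the 9 passed the test as lower in all 4 lines. In Cal27 it did not on TPM (0.02 on the log2 scale as deposited, -0.04 from exon length). CLDN1 was also below 0 in all 4 lines but did not pass in A375 (-0.35, adjusted p = 0.247 by edgeR).

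**Figure D3:**
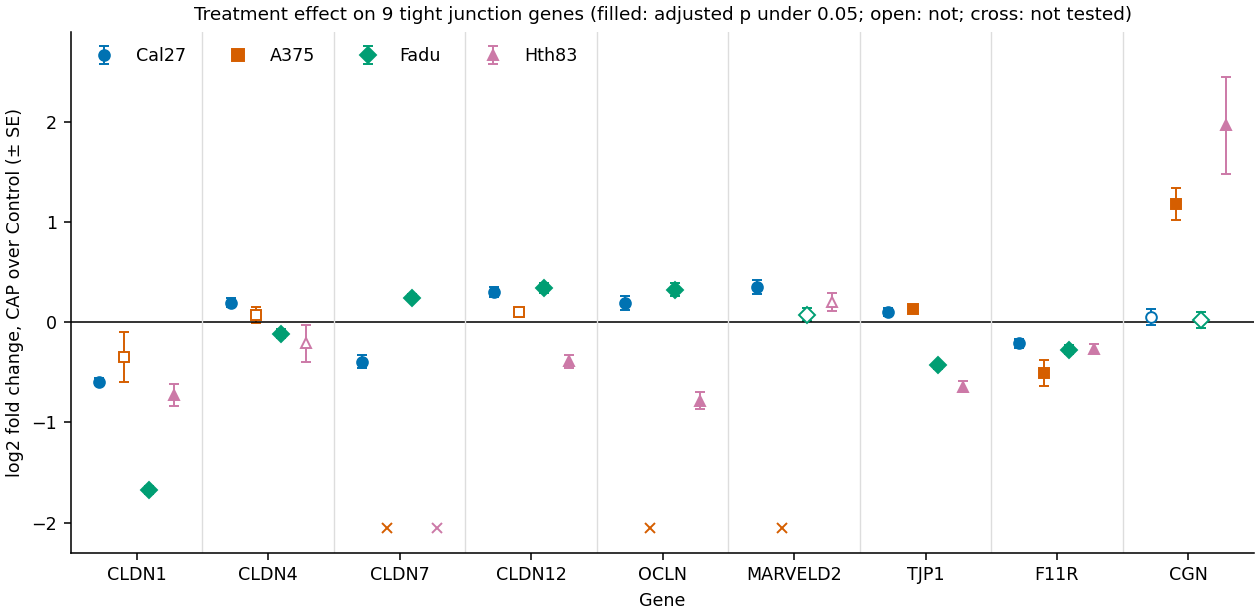
Log2 fold change of CAP over Control (± SE) for the 9 genes in the 4 lines, filled where the adjusted p was under 0.05, open where it was not, and a cross where the gene was too low to test. CLDN1 reaches -1.67 in Fadu, and OCLN and TJP1 lie at -0.78 and -0.64 in Hth83. CGN lies at 1.18 in A375 and at 1.96 in Hth83, where it was tested only through its CAP libraries. F11R is below 0 in all 4 lines (0.02 in Cal27 on deposited TPM), as is CLDN1, which is open in A375.

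CLDN7 moved in opposite directions in the lines that have it. In Cal27 it stood at 13.2, 13.5 and 14.3 RPKM in CAP libraries, against 17.3, 18.8 and 17.9 RPKM in Control libraries, and fell (log2 fold change -0.39 ± 0.06, adjusted p = 4.39e-06 by edgeR). In Fadu it stood at 62.2, 58.7 and 63.5 RPKM in CAP libraries, against 52.8, 50.9 and 50.7 RPKM in Control libraries, and rose (0.25 ± 0.04, adjusted p = 3.84e-08 by edgeR). The groups did not overlap in either line. The responses differed (Cal27 minus Fadu -0.66 ± 0.09, adjusted p = 7.97e-08 by edgeR), though not on deposited TPM (adjusted p = 0.116). A375 had 7, 0 and 2 counts in CAP and 6, 4 and 2 counts in Control libraries, and Hth83 2, 0 and 0 counts in CAP and 2, 0 and 1 counts in Control libraries, too few to test.

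The order of the claudins differed between CAP and Control Fadu. CLDN7 exceeded CLDN1 in every CAP library of Fadu, and CLDN1 exceeded CLDN7 in every Control library. CLDN1 made up 24.2% ± 1.25 of the summed RPKM of the 4 claudins in CAP Fadu and 53.8% ± 0.421 in Control Fadu (SD, n = 3 each). Its share was 64.5% ± 0.935 in CAP and 74.1% ± 0.707 in Control Cal27, and 93.9% ± 0.734 in CAP and 95.2% ± 0.110 in Control Hth83 (SD, n = 3 each).

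CLDN12 rose in Cal27 and Fadu and fell in Hth83. It stood at 16.9, 18.7 and 19.3 RPKM in CAP Cal27, against 15.5, 14.7 and 14.5 RPKM in Control Cal27 (0.30 ± 0.05, adjusted p = 4.26e-06 by edgeR). It stood at 9.77, 10.2 and 10.7 RPKM in CAP Fadu, against 7.77, 8.13 and 8.07 RPKM in Control Fadu (0.34 ± 0.05, adjusted p = 3.00e-09 by edgeR). In Hth83 it stood at 7.72, 6.93 and 7.65 RPKM in CAP libraries, against 9.95, 9.32 and 10.2 RPKM in Control libraries (-0.39 ± 0.06, adjusted p = 3.60e-06 by edgeR). CAP and Control did not overlap in these 3 lines. In A375 the change did not pass (0.10 ± 0.05, adjusted p = 0.0638 by edgeR), but did with RLE size factors (adjusted p = 0.0485) or without the first CAP library (adjusted p = 0.0359). Hth83 differed from Cal27 (Cal27 minus Hth83 0.69 ± 0.07, adjusted p = 4.67e-11) and from Fadu (Fadu minus Hth83 0.75 ± 0.08, adjusted p = 5.99e-12), whereas Cal27 and Fadu did not differ beyond their spread (-0.06 ± 0.07, adjusted p = 0.604).

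Changes of CLDN4 were small. It stood at 26.5, 24.8 and 25.7 RPKM in CAP Cal27, against 22.3, 22.9 and 22.3 RPKM in Control Cal27, with no overlap, and rose (0.19 ± 0.04, adjusted p = 4.67e-04 by edgeR). In Fadu it stood at 14.8, 15.1 and 14.03 RPKM in CAP libraries, against 15.96, 16.3 and 14.9 RPKM in Control libraries, where the groups overlapped on this scale. The Fadu change just passed (-0.11 ± 0.05, adjusted p = 0.0355 by edgeR) and did not in 11 of 19 alternatives. Among them were library size alone (-0.01, adjusted p = 0.892), the joint fit (adjusted p = 0.141), the filter of 1 CPM (adjusted p = 0.0545), TPM from exon length (adjusted p = 0.324) and leaving out the third CAP library (adjusted p = 0.169), the first Control library (adjusted p = 0.135) or the second Control library (adjusted p = 0.197). CLDN4 did not pass in A375 (0.07 ± 0.08, adjusted p = 0.502 by edgeR) or Hth83 (-0.21 ± 0.19, adjusted p = 0.373 by edgeR). The responses of Cal27 and Fadu differed (Cal27 minus Fadu 0.29 ± 0.08, adjusted p = 0.00168 by edgeR).

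**Figure D4:**
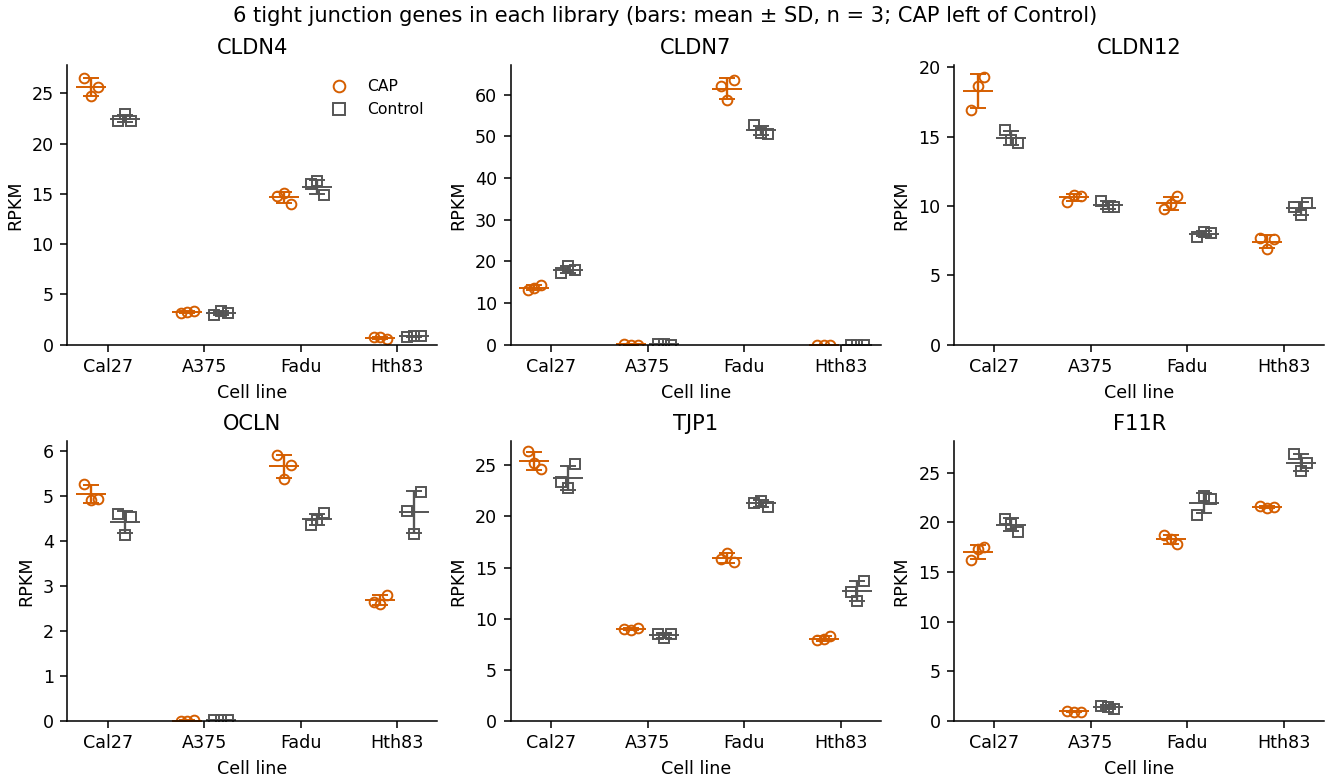
Level (RPKM) of CLDN4, CLDN7, CLDN12, OCLN, TJP1 and F11R in every library, CAP left of Control in each line. OCLN lies higher in CAP than in Control libraries of Fadu (5.38 to 5.90 against 4.35 to 4.61) and lower in Hth83 (2.59 to 2.80 against 4.16 to 5.09), and CLDN7 lies lower in CAP Cal27 (13.2 to 14.3 against 17.3 to 18.8) and higher in CAP Fadu (58.7 to 63.5 against 50.7 to 52.8).

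OCLN rose in Fadu and fell in Hth83, lines whose untreated levels did not differ beyond their spread. It stood at 5.903, 5.38 and 5.68 RPKM in CAP Fadu, against 4.35, 4.47 and 4.61 RPKM in Control Fadu (0.33 ± 0.06, adjusted p = 8.28e-06 by edgeR). In Hth83 it stood at 2.64, 2.59 and 2.803 RPKM in CAP libraries, against 4.67, 4.16 and 5.09 RPKM in Control libraries (-0.78 ± 0.09, adjusted p = 5.37e-09 by edgeR). The groups did not overlap in either line, and the responses differed (Fadu minus Hth83 1.13 ± 0.11, adjusted p = 7.60e-12 by edgeR). In Cal27 OCLN stood at 5.26, 4.91 and 4.93 RPKM in CAP libraries, against 4.59, 4.14 and 4.52 RPKM in Control libraries (0.19 ± 0.07, adjusted p = 0.0214 by edgeR). The Cal27 groups did not overlap, but the change did not pass without the first CAP library (adjusted p = 0.0978) or the second Control library (adjusted p = 0.128). In A375 OCLN had 0, 1 and 4 counts in CAP and 9, 4 and 2 counts in Control libraries, too few to test.

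MARVELD2, the chromosomal neighbour of OCLN and also a MARVEL protein, passed the test in Cal27, and with library size alone also in Fadu (0.18, adjusted p = 0.0155) and Hth83 (0.25, adjusted p = 0.0195). MARVELD2 stood at 7.99, 7.58 and 7.26 RPKM in CAP Cal27, against 5.68, 5.59 and 6.62 RPKM in Control Cal27, without overlap, and rose (0.36 ± 0.07, adjusted p = 8.14e-05 by edgeR). In Hth83, where OCLN fell, MARVELD2 stood at 5.27, 4.48 and 5.26 RPKM in CAP libraries, against 3.98, 4.41 and 4.78 RPKM in Control libraries. Those groups overlapped and the change did not pass (0.20 ± 0.09, adjusted p = 0.0558 by edgeR), though it did without the second CAP library (adjusted p = 0.0113) or the third Control library (adjusted p = 0.0288). MARVELD2 did not pass in Fadu (0.08 ± 0.07, adjusted p = 0.347 by edgeR) and had 8, 6 and 4 counts in CAP and 0, 7 and 0 counts in Control libraries of A375. A difference of its response between lines did not pass (interaction adjusted p = 0.153 by edgeR). It did on deposited TPM (adjusted p = 0.00256 by limma) or without the second Control library of A375 (adjusted p = 0.00125 by edgeR). That library held the only MARVELD2 counts of Control A375, so leaving it out cannot show how the response differs between lines.

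F11R fell in all 4 lines, in Cal27 not on TPM. It stood at 16.2, 17.3 and 17.5 RPKM in CAP Cal27, against 20.4, 19.9 and 19.1 RPKM in Control Cal27 (-0.21 ± 0.05, adjusted p = 4.01e-04 by edgeR), and at 1.001, 0.932 and 0.906 RPKM in CAP A375, against 1.53, 1.38 and 1.17 RPKM in Control A375 (-0.51 ± 0.13, adjusted p = 0.00184 by edgeR). In Fadu it stood at 18.7, 18.4 and 17.8 RPKM in CAP libraries, against 20.8, 22.7 and 22.3 RPKM in Control libraries (-0.27 ± 0.04, adjusted p = 2.58e-08 by edgeR). In Hth83 it stood at 21.7, 21.4 and 21.5 RPKM in CAP libraries, against 26.9, 25.1 and 25.98 RPKM in Control libraries (-0.26 ± 0.05, adjusted p = 3.28e-05 by edgeR). CAP and Control did not overlap in any line. The Cal27 decrease depended on scaling and was 0.02 on deposited TPM (adjusted p = 0.738) and -0.04 on TPM from exon length (adjusted p = 0.526). The A375 decrease did not pass on unfiltered deposited TPM (-0.44, adjusted p = 0.0634 by limma). The interaction over lines passed (adjusted p = 0.0328 by edgeR), but without any 1 of 19 of the 24 libraries it did not (adjusted p 0.0507 to 0.351), and it passed without the first CAP or the first Control library of Cal27, the first CAP or the third Control library of A375 or the third CAP library of Hth83.

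TJP1, the ZO-1 scaffold that claudins and occludin bind, fell in Fadu and Hth83. It stood at 15.8, 16.4 and 15.5 RPKM in CAP Fadu, against 21.3, 21.6 and 20.9 RPKM in Control Fadu (-0.43 ± 0.03, adjusted p = 1.17e-19 by edgeR). In Hth83 it stood at 7.899, 7.98 and 8.27 RPKM in CAP libraries, against 12.6, 11.7 and 13.7 RPKM in Control libraries (-0.64 ± 0.05, adjusted p = 1.98e-11 by edgeR). CAP and Control did not overlap in these 2 lines. TJP1 was slightly higher in CAP than in Control Cal27 (0.10 ± 0.04, adjusted p = 0.0304 by edgeR), where the groups overlapped at 26.4, 25.3 and 24.7 RPKM in CAP and 23.4, 22.8 and 25.1 RPKM in Control libraries. It was also slightly higher in A375 (0.13 ± 0.04, adjusted p = 0.00782 by edgeR), at 9.003, 8.897 and 9.09 RPKM in CAP and 8.51, 8.06 and 8.500 RPKM in Control libraries. Neither small increase was firm: the Cal27 one did not pass without the first (adjusted p = 0.154) or second (0.0598) CAP library or the first (0.123) or second (0.189) Control library, and the A375 one did not without the second Control library (adjusted p = 0.0545) or with library size alone (adjusted p = 0.202). The responses of Cal27 and Fadu (Cal27 minus Fadu 0.52 ± 0.06, adjusted p = 6.67e-10) and of Cal27 and Hth83 (Cal27 minus Hth83 0.75 ± 0.06, adjusted p = 2.46e-14) differed by edgeR.

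CGN, which binds ZO-1 and holds the exchange factor ARHGEF2 at the junction, rose in A375, where it is scarce. In A375 it had 145, 230 and 314 counts in CAP and 123, 102 and 85 counts in Control libraries, or 0.6903, 0.888 and 1.04 RPKM against 0.348, 0.443 and 0.403 RPKM, with no overlap (1.18 ± 0.16, adjusted p = 4.16e-07 by edgeR). In Hth83 it had 23, 20 and 33 counts in CAP and 6, 5 and 8 counts in Control libraries. There it passed the low-count filter only through its CAP libraries, so the Hth83 values are given as a description, and CGN was not tested there under a stricter filter of 1 CPM. CGN did not pass in Cal27 (0.05 ± 0.08, adjusted p = 0.662) or Fadu (0.03 ± 0.08, adjusted p = 0.818) by edgeR, but in Cal27 it did on TPM (adjusted p of 0.0147 to 0.0466). The response of A375 differed from that of Cal27 (Cal27 minus A375 -1.12 ± 0.18, adjusted p = 7.84e-07) and of Fadu (A375 minus Fadu 1.13 ± 0.18, adjusted p = 6.04e-07) by edgeR.

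ARHGEF2 itself, from a list of 15 other junction scaffolds, fell in 3 lines and rose in Fadu. It averaged 130.7 ± 2.59 CPM in CAP Cal27 and 167.5 ± 0.956 CPM in Control Cal27 (-0.35 ± 0.04, adjusted p = 9.05e-09 by edgeR; SD, n = 3 each). It averaged 249.2 ± 3.35 CPM in CAP A375 and 438.7 ± 21.8 CPM in Control A375 (-0.79 ± 0.04, adjusted p = 3.67e-17 by edgeR). It averaged 63.7 ± 1.85 CPM in CAP Fadu and 43.5 ± 1.64 CPM in Control Fadu (0.54 ± 0.05, adjusted p = 7.06e-16 by edgeR). It averaged 198.8 ± 12.4 CPM in CAP Hth83 and 601.8 ± 20.98 CPM in Control Hth83 (-1.59 ± 0.05, adjusted p = 1.07e-21 by edgeR). Of the 15 scaffolds, 5 rose and 5 fell of 14 tested in Cal27 (3 to 5 rose and 1 to 6 fell over the alternatives). In A375 2 rose and 7 fell of 13 (1 to 2 rose and 3 to 8 fell). In Fadu 3 rose and 8 fell of 15 (1 to 4 rose and 4 to 9 fell). In Hth83 3 rose and 5 fell of 13 (1 to 4 rose and 3 to 6 fell). Of all genes, 21.9% rose and 23.2% fell in Cal27, and 25.7% rose and 24.8% fell in A375. In Fadu 26.3% of all genes rose and 27.0% fell, and in Hth83 25.9% rose and 24.2% fell. The list's median log2 fold change was -0.21 in Cal27, -0.16 in A375, -0.19 in Fadu and -0.11 in Hth83.

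TJP3 (ZO-3), a paralog of ZO-1 on the same list, averaged 3.19 ± 0.325 CPM in CAP Fadu and 10.7 ± 0.631 CPM in Control Fadu and fell (-1.76 ± 0.13, adjusted p = 2.23e-21 by edgeR), as TJP1 did in that line. In Cal27 the multi-PDZ scaffold MPDZ (0.52 ± 0.07, adjusted p = 9.56e-08) and the actin-binding afadin gene AFDN (0.39 ± 0.04, adjusted p = 2.32e-10) rose by edgeR. The angiomotin-family gene AMOTL2 fell in Fadu (-1.05 ± 0.04, adjusted p = 1.11e-39) and rose in A375 (0.47 ± 0.05, adjusted p = 9.89e-09) by edgeR. In A375 the scaffold MAGI2 fell (-0.92 ± 0.11, adjusted p = 3.10e-08 by edgeR). In Hth83 TJAP1, a tight junction associated protein, fell (-0.65 ± 0.06, adjusted p = 6.44e-11) and the scaffold MAGI3 rose (0.54 ± 0.09, adjusted p = 8.64e-06) by edgeR.

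Among 10 other junction membrane proteins, 1 rose and 1 fell of 7 tested in Cal27, and 3 rose and 1 fell of 7 in A375. In Fadu 1 rose and 2 fell of 8, and in Hth83 2 rose and 0 fell of 5. Over the alternatives 0 to 1 rose in Cal27, and 1 to 3 rose and 0 to 1 fell in A375. The range was 1 to 4 higher and 0 to 2 lower in Fadu, and 0 to 3 higher in Hth83. By line, 21.9% to 26.3% of all genes rose and 23.2% to 27.0% fell. LSR (angulin-1), which recruits tricellulin to 3-cell contacts, fell in Cal27 (-0.41 ± 0.04, adjusted p = 1.39e-09), where MARVELD2 rose, and in A375 (-0.32 ± 0.10, adjusted p = 0.00646) by edgeR. The A375 change of LSR did not pass without the second CAP library (adjusted p = 0.0645). CXADR, the coxsackievirus and adenovirus receptor, rose in Cal27 (0.28 ± 0.07, adjusted p = 8.73e-04) and fell in Fadu (-0.54 ± 0.12, adjusted p = 3.59e-05) by edgeR. In Fadu CXADR did not pass on deposited TPM (adjusted p of 0.0832 to 0.207 by limma). JAM3, a relative of JAM-A, rose in A375 (0.18 ± 0.05, adjusted p = 0.00293 by edgeR), where F11R fell, but not with library size alone (adjusted p = 0.0645), in the joint fit (adjusted p = 0.184) or on TPM (adjusted p of 0.160 to 0.382).

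Other claudins were scarce. Of 19 further claudin genes, 7 passed the low-count filter in Cal27, 5 in A375, 7 in Fadu and 8 in Hth83, and only CLDN15 reached 10 CPM untreated in any line (10.6 ± 1.08 CPM in A375 and 18.5 ± 0.213 CPM in Hth83, SD, n = 3 each). Of those tested, 0 rose and 1 fell in Cal27, and 1 rose and 0 fell in A375. In Fadu 1 rose and 3 fell, and in Hth83 2 rose and 0 fell. Over the alternatives 0 to 1 rose and 0 to 1 fell in Cal27, and 0 to 1 rose in A375. The range was 1 to 3 lower in Fadu and 0 to 2 higher in Hth83. CLDN10, which rose in A375 and Hth83, did not pass in 7 of 15 alternatives in A375 and 12 of 15 in Hth83. By line, 21.9% to 26.3% of all genes rose and 23.2% to 27.0% fell.

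Transcription factors known to keep up or repress epithelial junction genes were listed as well. Of 11 factors that favour epithelial genes, including the splicing regulators ESRP1 and ESRP2, 0 rose and 2 fell of 11 tested in Cal27, 2 rose and 0 fell of 6 in A375, 3 rose and 7 fell of 11 in Fadu, and 0 rose and 6 fell of 9 in Hth83. Of all genes, 23.2% fell in Cal27, 24.8% in A375, 27.0% in Fadu and 24.2% in Hth83, and the Cal27 count lies near that share. By line, 21.9% to 26.3% of all genes rose. The median log2 fold change of the listed factors was -0.08 in Cal27, 0.43 in A375, -0.27 in Fadu and -0.82 in Hth83. Of the 11, 2 reached 10 CPM in untreated A375 and 3 in untreated Hth83, against 6 in Cal27 and 8 in Fadu. The A375 and Hth83 medians thus draw on scarce genes. The Cal27 direction depends on scaling, where 0 to 5 rose and 0 to 2 fell over the alternatives. Over the same alternatives 0 to 3 rose and 0 to 1 fell in A375. The range was 2 to 3 higher and 4 to 7 lower in Fadu, and 3 to 6 lower in Hth83.

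KLF4, a barrier factor of the epidermis, fell in Cal27, Fadu and Hth83, in Cal27 not on deposited TPM (-0.07, adjusted p of 0.189 to 0.296). It averaged 102.4 ± 3.59 CPM in CAP Cal27 and 127.3 ± 2.33 CPM in Control Cal27 (-0.31 ± 0.04, adjusted p = 5.35e-07 by edgeR; SD, n = 3 each). It averaged 42.1 ± 3.55 CPM in CAP Fadu and 68.1 ± 4.87 CPM in Control Fadu (-0.71 ± 0.06, adjusted p = 4.92e-18 by edgeR). It averaged 9.47 ± 0.642 CPM in CAP Hth83 and 47.98 ± 1.29 CPM in Control Hth83 (-2.33 ± 0.08, adjusted p = 4.33e-20 by edgeR). KLF5, a related factor of proliferating epithelium, fell in Hth83 (-1.08 ± 0.05, adjusted p = 1.35e-17), Cal27 (-0.28 ± 0.04, adjusted p = 2.61e-07) and Fadu (-0.27 ± 0.03, adjusted p = 3.49e-11) and rose in A375 (0.19 ± 0.05, adjusted p = 0.00303) by edgeR. It did not pass in Cal27 on deposited TPM (adjusted p of 0.303 to 0.404), nor in A375 with library size alone (adjusted p = 0.0558) or on TPM (adjusted p of 0.0889 to 0.147). ELF3, an epithelial ETS factor, fell in Fadu (-1.57 ± 0.10, adjusted p = 9.62e-05) and Hth83 (-0.40 ± 0.07, adjusted p = 2.64e-05) by edgeR. GRHL2, the grainyhead factor that activates claudin genes in mouse epithelium, fell in Fadu (-0.60 ± 0.04, adjusted p = 8.80e-25 by edgeR).

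The 5 listed repressors of epithelial genes were mostly scarce outside A375. At 10 CPM or more in untreated cells were 5 in A375, 2 in Hth83, 1 in Cal27 and 1 in Fadu. Of the 5 repressors, 1 rose and 1 fell of 5 tested in Cal27 (0 to 1 rose over the alternatives). In A375 1 rose and 3 fell of 5 (0 to 2 rose), and in Fadu 3 rose and 0 fell of 4 (1 to 3 rose). In Hth83 3 rose and 1 fell of 5 (0 to 3 rose and 0 to 1 fell). Beside these counts, 21.9% to 26.3% of all genes rose and 23.2% to 27.0% fell, by line. SNAI2 fell in Cal27 (-0.71 ± 0.06, adjusted p = 2.18e-12) and A375 (-0.49 ± 0.09, adjusted p = 2.79e-05) and rose in Hth83 (0.23 ± 0.06, adjusted p = 0.00382) by edgeR, in Hth83 not without the first Control library (adjusted p = 0.0654) or on deposited TPM (adjusted p of 0.0566 to 0.114). In A375 SNAI1 (-0.71 ± 0.06, adjusted p = 1.52e-10) and ZEB1 (-0.43 ± 0.05, adjusted p = 2.36e-09) also fell, and in Hth83 TWIST1 rose (0.42 ± 0.12, adjusted p = 0.00339) by edgeR. In Fadu SNAI2 did not pass (-0.09, adjusted p = 0.219 by edgeR). The part of these factors in the CLDN1 result was not tested.

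**Figure D5:**
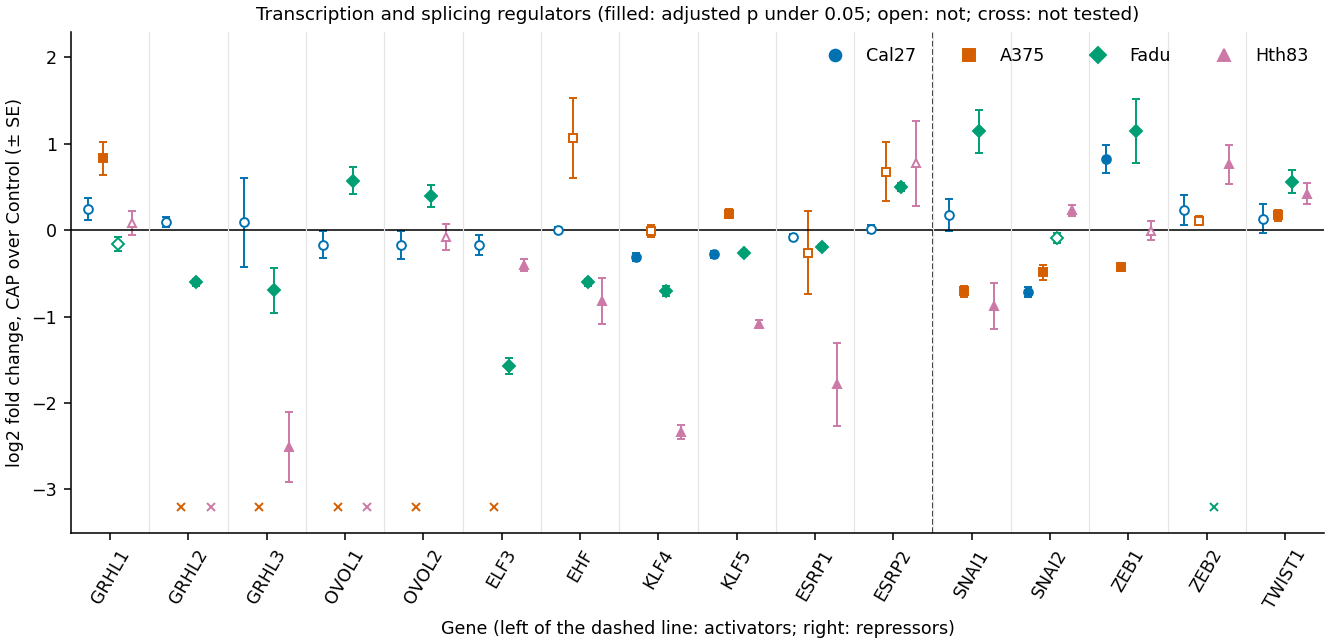
Log2 fold change of CAP over Control (± SE) for 11 genes that favour and 5 that repress epithelial genes, by line. KLF4 lies at -0.31 in Cal27, -0.71 in Fadu and -2.33 in Hth83, and SNAI2 at -0.71 in Cal27, -0.49 in A375 and 0.23 in Hth83.

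Across the 24 libraries the log-scale levels of F11R (Pearson r = 0.978), MARVELD2 (0.954) and OCLN (0.952) were most like those of CLDN1 among the members, and those of CGN (0.0396) least. The libraries fall into 4 lines, and libraries of a line share their cells. With each line's mean taken away, TJP1 (0.702) and F11R (0.685) were most like CLDN1, and MARVELD2 stood at -0.436. Among 11821 genes that are not members, the most like CLDN1 in level were IRX2-DT (0.995), DLG1 (0.990), REPS2 (0.990), MIR205HG (0.989) and DDR1 (0.988). With line means taken away they were the amino acid transporter gene SLC7A5 (0.970), KRCC1 (0.965), LITAF (0.962), IGFBP3 (0.959) and ANP32B (0.948). These correlations describe 24 libraries that share lines and treatment.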

How the data were processed

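The authors deposited, for each line, a table of gene counts and TPM for 3 CAP and 3 Control libraries. Per the labels' protocols, Trizol RNA went into a SMARTER mRNA-Seq kit and onto a HiSeq3000. Per the submitters' processing notes, HISAT2 and GRCh38 were used. The HISAT2 version, counter, annotation and strand setting were not given in the sources used here. The deposited TPM followed gene spans, introns included: for 100.0% of 21636 genes of the same version the implied length was within 1% of the span, against 56.9% for exon length. TPM had been planned for levels, so RPKM from the deposited counts was used in its place.

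Genes were tested with edgeR 4.0.16 in R 4.3.3 (TMM scaling, filterByExpr with a count of 10 and a total of 15, robust quasi-likelihood test), within each line, and in a joint fit of the 24 libraries as 8 group means for differences between lines. P-values were adjusted by Benjamini-Hochberg over all genes tested, at 0.05. Alternatives used DESeq2 1.42.0, other scalings and filters, limma 3.58.1 on log2 TPM (pseudocounts of 1 and 0.1), a minimum fold of 1.2, a replicate block and each library left out. TPM on exon length was added after seeing the data, as was the order of levels on the longest coding transcript.

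Replicate numbers recur in CAP and Control, but same-numbered libraries did not deviate together (correlations -0.0226 to 0.0355), so they were not treated as pairs. Members and gene lists were chosen with earlier results of these data known. Besides members, up to 3 genes per list and line are named: those with the largest absolute log2 fold change among genes that passed, reached 10 CPM and did not overlap between groups. Some genes that this rule names are not reported here. Squamous markers named beside their counts, and ARHGEF2 in Cal27, KLF5 in Fadu and EPCAM in Fadu and Cal27, were chosen after their values were seen. The scripts were tested on simulated counts in which few genes changed, so that test does not bear on the choice of scaling.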

Additional observations from a re-analysis of the deposited data

Results flagged for a closer look

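For 8 of the 9 genes the response to CAP differed between the 4 lines, by the test of the difference itself (the interaction of line and treatment in edgeR's joint fit, which 56.9% of all genes passed). The adjusted p was 4.67e-07 for CLDN1, which fell most in Fadu, and 0.00222 for CLDN4. It was 8.36e-07 for CLDN7, which fell in Cal27 and rose in Fadu. The CLDN7 interaction did not pass on deposited TPM (adjusted p = 0.265 by limma), and CLDN7 had 0 to 7 counts per library in A375 and Hth83. The adjusted p was 2.39e-12 for CLDN12, 5.22e-12 for OCLN and 1.72e-16 for TJP1, each lower in CAP than in Control Hth83. CLDN12 and OCLN were higher in CAP than in Control Fadu. The adjusted p for 2 further genes follows. It was 0.0328 for F11R, which fell in every line (in Cal27 not on TPM, 0.022 as deposited and -0.04 from exon length) and whose interaction did not pass without any 1 of 19 of the 24 libraries, and 8.33e-09 for CGN, which rose in A375. In Hth83 CGN had 5 to 8 counts per Control library and passed the low-count filter of that line only through its CAP libraries.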

How the results depend on the processing

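Of 604 alternative values for the members in CAP against Control, 550 kept direction and side of the threshold, 41 no longer passed, 10 newly passed and 3 turned sign (F11R in Cal27, 0.022 on deposited TPM, with or without a filter and with the smaller pseudocount). A sign change between values that both missed the threshold was not counted as a turn. Requiring a fold of 1.2 left 2927 genes in Cal27, 4626 in A375, 5616 in Fadu and 4636 in Hth83. It left 2 members called in Cal27 (0 higher), 1 higher in A375 and 2 called in Fadu (0 higher, 2 lower). Unfiltered TPM called 6057 genes in A375 and 1 member (1 higher, 0 lower), with 1 lower in Cal27. Members higher numbered 3 in Cal27 and 1 in A375 in the joint fit, and 1 in A375 with library size or any TPM setting. In Hth83 they numbered 2 with library size and 0 with the filter of 1 CPM or on filtered TPM, where CGN was not tested. Leaving out 1 library gave 3 to 5 members higher in Cal27, 1 to 3 in A375 and 1 to 2 in Hth83.

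Between untreated Cal27 and Fadu, TJP1 turned to -0.011 with library size and -0.22 on TPM, MARVELD2 to -0.37 and CGN to -0.35 on TPM. Differences in response turned on TPM for Cal27 minus A375 (MARVELD2 0.49, TJP1 0.28) and A375 minus Hth83 (OCLN 0.57, CGN 0.38). The cause was not tested. With the replicate block, 8 members were called in Cal27, 3 in A375, 7 in Fadu and 6 in Hth83, and 7704, 9946, 10183 and 8652 genes in those lines. The block left a line by treatment interaction for 13151 genes and 7 members, without F11R (adjusted p = 0.0768). Low counts limit CLDN7, OCLN and MARVELD2 in A375 and CLDN7 and CGN in Hth83.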

Other observations

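Genes of the adherens junction and its partners, a list of 14, had more members that fell than rose in Cal27 and Fadu. In Cal27 3 rose and 8 fell of 14 tested, and in Fadu 1 rose and 10 fell of 14, beside 23.2% and 27.0% of all genes that fell. The Cal27 split depends on scaling, where 0 to 5 rose and 3 to 8 fell over the alternatives. In A375 3 rose and 2 fell of 8 (25.7% of all genes rose and 24.8% fell). In Hth83 4 rose and 4 fell of 10 (25.9% of all genes rose and 24.2% fell). Over the alternatives 1 to 3 rose and 1 to 2 fell in A375, and 1 to 3 rose and 6 to 10 fell in Fadu. The range was 1 to 4 higher and 0 to 5 lower in Hth83. CDH1, the E-cadherin gene, averaged 216.5 ± 6.44 CPM in CAP Fadu and 350.7 ± 1.38 CPM in Control Fadu (-0.71 ± 0.03, adjusted p = 6.12e-35 by edgeR; SD, n = 3 each). EPCAM, the partner of CLDN7, rose in Fadu (0.50 ± 0.04, adjusted p = 2.47e-22), where CLDN7 rose, and in Hth83 (0.73 ± 0.06, adjusted p = 2.95e-11), where CLDN7 had 0 to 2 counts per library, by edgeR. In Cal27 EPCAM was at -0.10 ± 0.04, adjusted p = 0.0203 by edgeR, a value that turned positive in 4 of 19 alternatives and did not pass in 6 others. The channel-activating protease gene PRSS8 fell in Fadu (-0.90 ± 0.06, adjusted p = 9.98e-23) and Cal27 (-0.45 ± 0.04, adjusted p = 2.21e-10) by edgeR.

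Of 9 polarity genes, 4 rose and 3 fell of 9 tested in Cal27 (1 to 5 rose and 0 to 3 fell over the alternatives). In A375 2 rose and 2 fell of 8 (0 to 2 rose and 0 to 3 fell). In Fadu 1 rose and 3 fell of 9 (0 to 1 rose and 2 to 4 fell). In Hth83 2 rose and 4 fell of 8 (1 to 2 rose and 1 to 4 fell). Beside these counts, 21.9% to 26.3% of all genes rose and 23.2% to 27.0% fell, by line. PATJ, a scaffold of the Crumbs complex that binds ZO-3 and claudins, rose in Cal27 (0.40 ± 0.05, adjusted p = 2.33e-07) and fell in A375 (-0.95 ± 0.09, adjusted p = 6.49e-10) and Fadu (-0.40 ± 0.04, adjusted p = 8.55e-16) by edgeR. The atypical protein kinase C gene PRKCZ fell in Hth83 (-0.77 ± 0.09, adjusted p = 9.81e-09) and Cal27 (-0.44 ± 0.07, adjusted p = 1.09e-05) by edgeR. In Cal27 PRKCZ did not pass on deposited TPM (adjusted p of 0.198 to 0.455 by limma).

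The deposited TPM divides counts by gene span. TJP1 has a span of 269.499 kb and 11.265 kb of exon, and CLDN1 a span of 16.775 kb and 3.663 kb of exon, so deposited TPM sets TJP1 far lower against CLDN1 than exon length does.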
